A study of Mus musculus with 6 samples.

Results

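The SOCS (suppressor of cytokine signaling) family was followed in regulatory T cells (Tregs) with and without Zfp335. The 8 members, Cish and Socs1 to Socs7, were taken by their gene symbols, and all 8 had a row among the 13709 rows of the deposited RNA-Seq count table. The bulk libraries were made from CD4+YFP+CD25+ cells, 3 from Foxp3Cre mice (WT, labelled wild type) and 3 from Foxp3Cre Zfp335fl/fl mice (KO, labelled Zfp335 deficient), all C57BL/6. The methods of the study give an age of 2 weeks. WT and KO mice share the Foxp3Cre allele, in which a YFP fused to Cre recombinase is made from the Foxp3 locus, so that deletion of Zfp335 is limited to cells that have turned on Foxp3. The study describes inflammation in several organs of KO mice. The labels name both lymph nodes and spleen as the tissue of origin. Whether a sample is 1 mouse or a pool is not given in the sources used here, and the p-values below measure the spread between these samples only.

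Cytokines such as IL-2, IL-4, IL-6 and the interferons bind receptors that carry Janus kinases (JAKs), which phosphorylate STAT transcription factors, and STATs then switch on their target genes. SOCS proteins close the loop. Several of them are STAT targets, and each carries an SH2 domain that binds phosphorylated receptors or kinases and a SOCS box that recruits elongins B and C and cullin-5 to mark the bound proteins for degradation. SOCS1 and SOCS3 also block JAK activity directly. Tregs depend on IL-2 and STAT5, and SOCS1 is known to be needed in them to keep Foxp3 stable and IFN-γ low.

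The sequences around the start sites of Cish, Socs1 and Socs3 are shown because these are the members best known as immediate STAT targets. They come from RefSeq on GRCm38.p6, the assembly that mm10 denotes, and run from 250 bases before to 50 bases after the start site, 5′ to 3′ on the strand of the gene. Of the 8 members, 4 (Cish, Socs1, Socs3 and Socs4) were searched. Socs2, Socs5 and Socs7 had no entry in that table, and Socs6 was left out of the search. Capitals mark matches to the STAT site known as GAS, TTCNNNGAA, or to the interferon-stimulated response element (ISRE), searched as GAAA, any 2 bases and GAAA, both on either strand. Cish lies at chr9:107296409-107296708 on the plus strand, Socs1 at chr16:10785487-10785786 and Socs3 at chr11:117969317-117969616 on the minus strand.
Cish: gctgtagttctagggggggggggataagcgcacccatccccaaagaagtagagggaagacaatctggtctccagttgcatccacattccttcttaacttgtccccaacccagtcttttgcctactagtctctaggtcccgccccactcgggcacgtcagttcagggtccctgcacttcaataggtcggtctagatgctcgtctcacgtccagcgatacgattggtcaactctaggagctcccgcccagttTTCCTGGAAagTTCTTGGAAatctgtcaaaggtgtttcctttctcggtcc
Socs1: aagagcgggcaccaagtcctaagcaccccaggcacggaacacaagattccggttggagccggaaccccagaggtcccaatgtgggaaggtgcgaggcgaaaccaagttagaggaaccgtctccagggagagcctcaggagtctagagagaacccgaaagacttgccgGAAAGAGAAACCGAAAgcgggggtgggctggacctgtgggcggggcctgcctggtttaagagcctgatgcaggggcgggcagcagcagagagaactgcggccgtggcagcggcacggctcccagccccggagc
Socs3: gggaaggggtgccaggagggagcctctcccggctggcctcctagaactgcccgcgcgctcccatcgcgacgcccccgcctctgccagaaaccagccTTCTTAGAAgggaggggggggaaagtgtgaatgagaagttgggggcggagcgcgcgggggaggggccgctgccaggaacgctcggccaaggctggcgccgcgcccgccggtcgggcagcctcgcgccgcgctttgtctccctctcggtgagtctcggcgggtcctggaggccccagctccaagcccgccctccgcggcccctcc

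Cish held 2 GAS matches, TTCCTGGAA and TTCTTGGAA, the first of which began at the start site itself. Socs3 held 1 GAS match, TTCTTAGAA, which began 154 bases before the start site. Socs1 held 2 ISRE matches that overlap each other, GAAAGAGAAA and GAAACCGAAA, and no GAS match. In the window of Socs4 neither motif was found. Of 32851 windows of the same length in the table, 8.3% held at least 1 GAS match, 0.46% at least 2, and 3.44% at least 1 ISRE match. Distances are from the RefSeq start site of the window, which for Cish and Socs3 lies inside the longer gene that GENCODE M21 annotates, so that the gene coordinates given below start further upstream. These are matches of letters, and binding was not measured here.

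**Figure D1:**
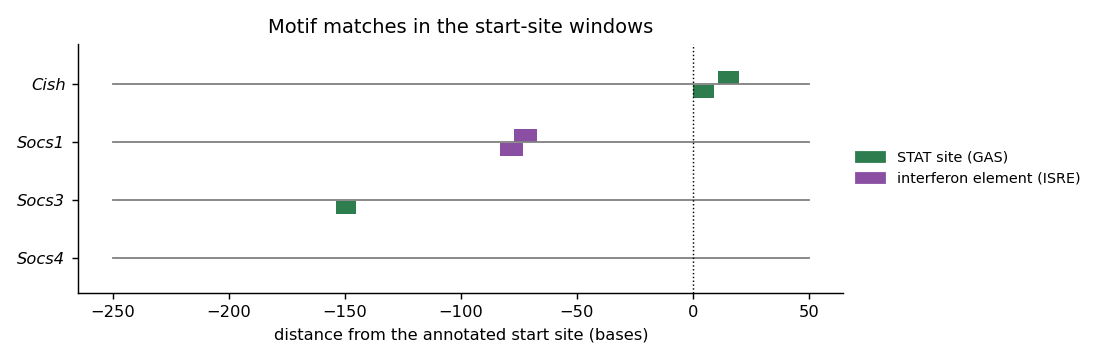
Positions of GAS and ISRE matches in the start-site windows of the 4 members searched, in bases from the annotated start site (dotted line, 0). Cish carries its 2 GAS matches at and just after the start site, Socs3 carries 1 upstream, and Socs1 carries 2 overlapping ISRE matches.

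The libraries held 32032631 to 40728419 counts. Zfp335, the targeted gene, spanned 94.3 to 102.6 CPM among WT and 36.98 to 40.2 CPM among KO samples, a log2 fold change of -1.37 (SE 0.07, edgeR adjusted p 2.14e-05), in the direction of the labels. Its locus overlaps Pcif1, which is also in the table, on the other strand. CPM are counts scaled to the library size after TMM normalization. WT replicate 3 stood apart from the other WT samples, since its counts differed from them by a ratio of 25.82 to 26.26 to sampling noise, against 10.07 between WT replicates 1 and 2 and 5.27 to 6.07 among KO samples. Foxp3 and the other 6 T cell and Treg markers were expressed in all samples, with summed levels of 4135 to 5369 CPM in WT and 3515 to 3618 CPM in KO, and Foxp3 and Ikzf2 were called lower (log2 fold changes -0.88 and -1.11), while without WT replicate 3 Foxp3 was at -0.57 (edgeR adjusted p 1.27e-06), just short of the fold cutoff. Of the 7 myeloid markers 6 were tested and 5 were called higher in KO, with a summed level of 16.5 to 21.8 CPM in WT and 46.8 to 51.3 CPM in KO. Of the 4 NK cell markers 3 were called higher, and Ncr1 was not (edgeR adjusted p 0.130). The sum of the 4 was 3.78 to 5.89 CPM in WT and 15.35 to 17.34 CPM in KO. Eomes alone gave 1.80 to 3.24 CPM of it in WT and 11.08 to 11.55 CPM in KO. B cell markers summed to 19.0 to 23.7 CPM in WT and 18.1 to 20.1 CPM in KO, CD8 markers to 9.32 to 13.2 and 12.02 to 12.74 CPM, and erythroid markers to 23.3 to 101.0 and 43.2 to 49.8 CPM. None of the measured markers was at 0 in any sample, and Cd14, a monocyte marker, is not among the genes of the table. The part of such cells in the results below was not tested, and in bulk samples fewer cells of a type and less RNA per cell cannot be told apart.

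Among the 8 SOCS genes, 1 was called between the genotypes, and it was lower in KO. A call needed a fold change above 1.5, p under 0.05 and adjusted p under 0.1, the cutoffs of the study, and all 8 genes passed the filter on low counts. Over all 13594 genes tested, 24.4% were called, 12.5% lower and 11.9% higher in KO, so that the share in the family was no larger than this background. Of the log2 fold changes, 4 were above 0 and 4 below, between -0.91 and 0.67, with a median of 0.02 beside -0.04 over all genes. The 3 KO values and the 3 WT values were fully separate for 2 members, Socs5 and Socs7, and for 53.8% of all genes. Without WT replicate 3, 2 members were called, Socs5 lower and Socs3 higher, while 26.8% of all genes were called.

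**Figure D2:**
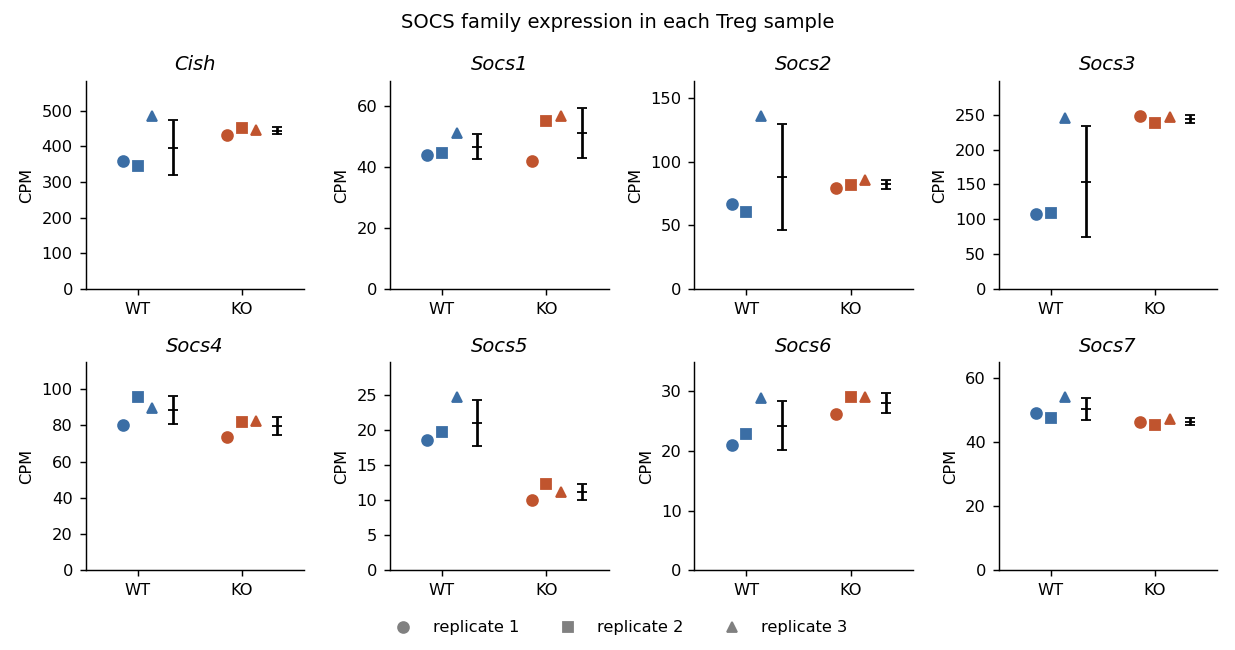
CPM (y axis, from 0) of each SOCS gene in the 3 WT and 3 KO samples, with marker shape for the replicate number and bars for the mean ± SD of 3 samples. Socs5 is lower in every KO sample, and WT replicate 3 is the highest WT sample for all members except Socs4.

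Socs5 was the member called over all 6 samples. SOCS5 is known for acting on the epidermal growth factor receptor and has been described to bind the IL-4 receptor. In the order of replicates 1 to 3, WT samples held Socs5 at 18.6, 19.7 and 24.7 CPM, whereas KO samples held 10.02, 12.3 and 11.15 CPM. The lowest WT sample was above the highest KO sample. The mean fell from 20.98 ± 3.24 to 11.16 ± 1.15 CPM (SD, n = 3), which left 53.2% in KO. On the log2 scale the change was -0.91 (SE 0.15, 95% interval -1.25 to -0.57, edgeR adjusted p 0.00224). Under all 15 alternative settings it was called lower, from -0.99 to -0.78. On the genome (mm10) Socs5 lies on chromosome 17 at 87107679 to 87137839, and in GENCODE M21 no other gene overlaps it.

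The genes whose profile over the 6 samples lay nearest to that of Socs5 were Chchd7 and Pcmtd2, among 9832 genes with at least 5 CPM. Likeness was the root mean square difference of centered log2 CPM, which was 0.050 for Chchd7 and 0.052 for Pcmtd2. Chchd7 averaged 17.7 ± 2.09 CPM among WT and 9.62 ± 0.57 CPM among KO samples. Pcmtd2 averaged 76.2 ± 11.3 CPM among WT and 42.2 ± 3.84 CPM among KO samples. Both had their highest value in WT replicate 3, as Socs5 did, which follows largely from choosing them by likeness over the same 6 samples.

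Socs3 had the largest positive difference, but it was not called. SOCS3 binds the gp130 receptor chain and restrains IL-6 and STAT3 signaling. In WT, replicates 1 to 3 gave 107.3, 109.0 and 245.7 CPM, and the KO replicates gave 248.7, 238.0 and 246.5 CPM. WT replicate 3 thus lay within the range of the KO samples, and WT replicates 1 and 2 lay far below it. The log2 fold change was 0.67 (SE 0.30, 95% interval -0.03 to 1.36, edgeR adjusted p 0.118). Without WT replicate 3 it was 1.17 (adjusted p 4.03e-10), and the KO mean was 2.26-fold the mean of WT replicates 1 and 2. With offsets for GC content and length the log2 fold change was 0.76 and passed as well (adjusted p 0.0801). The summed myeloid markers were 16.5 CPM in WT replicate 3, the lowest of all samples, and 46.8 CPM or more in KO. In WT replicates 1 and 2, but not in replicate 3, that sum rests largely on Lyz2. Its values were 12.7, 13.9 and 4.30 CPM in WT replicates 1 to 3. Among WT samples, Fcer1g, Tyrobp and Itgam were highest in replicate 3. Fcer1g gave 0.30, 0.67 and 5.53 CPM, Tyrobp 1.195, 1.52 and 2.49 CPM and Itgam 2.58, 2.74 and 3.73 CPM. Csf1r, at 1.49, 2.68 and 0.39 CPM, and Adgre1, at 0.33, 0.24 and 0.09 CPM, were lowest in replicate 3, as Lyz2 was. The NK cell sum was the highest of the WT samples in replicate 3, at 5.89 CPM. Of its markers, Klrb1c (1.17, 1.31 and 2.46 CPM in WT replicates 1 to 3) and Eomes (1.90, 1.80 and 3.24 CPM) were highest there. Ncr1 (0.54, 0.49 and 0.12 CPM) and Klre1 (0.16, 0.21 and 0.06 CPM) were lowest there. The part of myeloid and NK cells in the Socs3 values was not tested. Socs3 lies on chromosome 11 at 117966079 to 117970047, with 1 annotated protein-coding transcript and no overlapping gene.

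Cish and Socs2 are targets of STAT5, and CIS, the product of Cish, binds the IL-2 receptor beta chain. For Cish, WT replicates 1 to 3 gave 357.8, 345.6 and 485.9 CPM, and the KO replicates gave 432.2, 452.6 and 446.1 CPM. WT replicate 3 exceeded every KO sample, and the other WT samples were below them. The log2 fold change was 0.16 (95% interval -0.14 to 0.46, edgeR adjusted p 0.359), an interval within a fold change of 1.5 in both directions. Without WT replicate 3 it was 0.33 (adjusted p 7.31e-05), below the fold cutoff. Cish, on chromosome 9 at 107296026 to 107302784, overlaps an antisense RNA and a pseudogene on the other strand, and whether reads were counted by strand was not given in the sources used here.

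Socs2, whose product restrains growth hormone signaling, likewise had its highest value in WT replicate 3. WT replicates 1 to 3 gave 67.2, 60.5 and 136.2 CPM, against 79.3, 81.5 and 85.9 CPM for the KO replicates. The KO samples lay between the WT samples, above replicates 1 and 2 and below replicate 3. The log2 fold change was -0.10 (95% interval -0.75 to 0.55, edgeR adjusted p 0.816), an interval that reached beyond a fold change of 1.5 downward. Without WT replicate 3 the log2 fold change turned to 0.36 (adjusted p 0.000707), below the fold cutoff.

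Socs1, the inhibitor of IFN-γ and IL-2 signaling through JAKs, did not pass the test. WT replicates 1 to 3 gave 44.1, 44.6 and 51.4 CPM, against 41.9, 55.3 and 56.9 CPM for the KO replicates. The lowest sample of all was a KO sample, and the other KO samples were above every WT sample. The log2 fold change was 0.14 (95% interval -0.16 to 0.44, edgeR adjusted p 0.441). Across the alternative settings it ranged from 0.06 to 0.27 and was never called.

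Socs4, Socs6 and Socs7 belong with Socs5 to the less studied members with long N-terminal regions, which act mostly on receptor tyrosine kinases and insulin signaling. Socs4 gave 79.9, 95.5 and 89.5 CPM in the WT replicates, against 73.7, 82.0 and 82.6 CPM for KO, with a log2 fold change of -0.15 (edgeR adjusted p 0.211). Socs6 gave 21.03, 22.9 and 28.8 CPM in the WT replicates, against 26.2, 29.02 and 28.99 CPM for KO, with a log2 fold change of 0.21 (adjusted p 0.240). Socs7 gave 49.3, 47.5 and 54.1 CPM in the WT replicates, against 46.4, 45.25 and 47.4 CPM for KO, with a log2 fold change of -0.12 (adjusted p 0.275). The 95% intervals ran from -0.36 to 0.05 for Socs4, from -0.09 to 0.52 for Socs6 and from -0.30 to 0.06 for Socs7, all within a fold change of 1.5. Without WT replicate 3, Socs6 was at 0.35 (edgeR adjusted p 0.00688), below the fold cutoff. In GENCODE M21, 3 processed pseudogenes lie within Socs6, none of them in the table. Socs7 was lower in each KO sample than in each WT sample, and the lowest WT sample exceeded the highest KO sample by little, at 47.47 against 47.43 CPM.

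**Figure D3:**
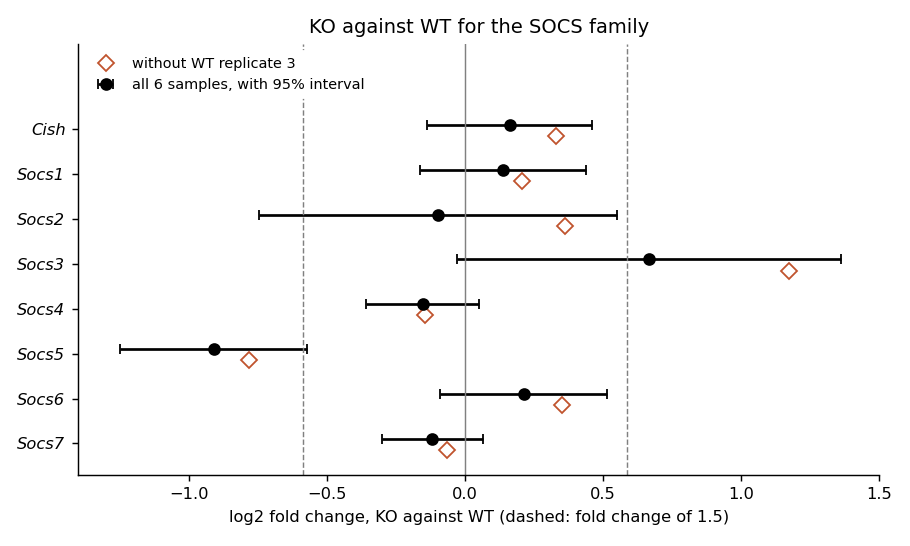
Log2 fold change of KO against WT for each SOCS gene, with its 95% interval over all 6 samples (black) and the estimate without WT replicate 3 (open diamonds); dashed lines mark a fold change of 1.5. Socs5 lies left of the line in both estimates, while Socs3 moves from 0.67 to 1.17 and Socs2 from -0.10 to 0.36 without that sample.

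In WT replicate 3 all 8 members were above the mean of WT replicates 1 and 2, against 49.2% of all genes with counts in every sample. The log2 difference was 1.18 for Socs3, 1.09 for Socs2 and 0.47 for Cish, then 0.39 for Socs6 and 0.37 for Socs5. Socs1, Socs7 and Socs4 followed at 0.21, 0.16 and 0.03. The median was 0.38 in the family and -0.01 over all genes. The STAT5 target Pim1 and the interferon signaling factor Stat2, both singled out after their values were seen, were also high in that sample. For Pim1 the WT replicates gave 434.0, 406.9 and 960.0 CPM, against 674.4 to 682.1 CPM among KO samples. For Stat2 they gave 113.2, 110.3 and 206.5 CPM, against 199.0 to 205.8 CPM among KO samples. Il7r, the IL-7 receptor chain, chosen in the same way, gave 118.0, 123.2 and 563.3 CPM, against 194.2 to 210.3 CPM among KO samples. What sets this sample apart was not tested.

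To order the members by abundance, levels were divided by the mean length of the annotated protein-coding transcripts and scaled to the same total in each sample (TPM). Cish was the most abundant in both genotypes, at 358.9 ± 60.5 TPM in WT and 395.5 ± 9.48 TPM in KO. In WT it was followed by Socs2, Socs3, Socs4, Socs1, Socs6, Socs5 and Socs7, with mean levels from 120.1 down to 13.0 TPM. The values of Socs2 and Socs3 overlapped in WT, and so did those of Socs5 and Socs7, while the other neighbors were apart in all 3 samples. In KO the order was Cish, Socs3, Socs2, Socs4, Socs1, Socs6, Socs7 and Socs5, and no neighbors overlapped, although Socs4 and Socs1 came as close as 35.52 and 35.51 TPM. Thus in KO Socs3 stood above Socs2, at 170.9 ± 3.62 against 111.1 ± 4.11 TPM, and Socs5 was last at 7.08 ± 0.74 TPM. When the length of the longest transcript was used, Socs3 came before Socs2 in WT as well, Socs1 came before Socs4 in both genotypes, and the last places were Socs7, Socs5 and Socs6 in WT and Socs7, Socs6 and Socs5 in KO, so these places rest on the annotated lengths.

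As shares of the summed level of the family, Cish made up 51.4% ± 3.57 in WT and 50.1% ± 0.60 in KO (SD, n = 3). The share of Socs3 was 12.7, 13.1 and 18.7% in WT replicates 1 to 3 and 22.7, 20.9 and 21.5% in KO replicates 1 to 3. For this share WT replicate 3 lay below the KO samples, unlike for its CPM. Socs2 took 16.5% ± 3.19 in WT and 14.1% ± 0.32 in KO, and Socs5 fell from 1.95% ± 0.22 to 0.90% ± 0.08. Socs1 took 4.33% ± 0.71 in WT and 4.07% ± 0.56 in KO. The summed level was 622.5, 592.8 and 904.6 TPM in WT replicates 1 to 3 and 768.1 to 799.6 TPM in KO, so that the WT samples lay on both sides of KO. The spread between KO samples was the smaller one for the family sum, at an SD of 18.0 TPM against 172.1 TPM in WT.

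**Figure D4:**
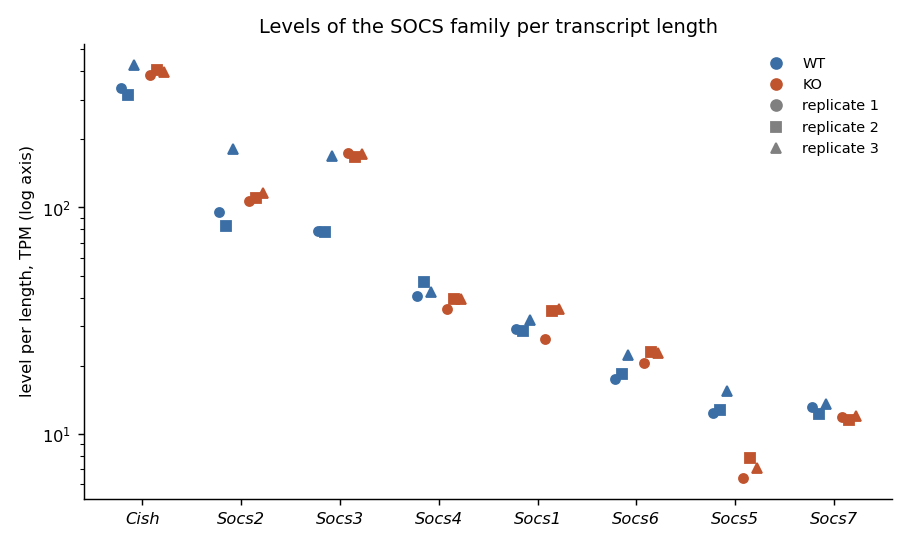
Levels of the SOCS genes per transcript length in TPM (log axis) in each sample, ordered by the WT mean. Cish leads in both genotypes, Socs3 is above Socs2 in the 3 KO samples, and Socs5 is the lowest gene in KO.

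The partners of the family were compared by lists drawn up with earlier results known. Among the 90 distinct genes tested on these lists, 29 were called, 22 higher and 7 lower in KO, a share of 32.2% beside 24.4% over all genes. Without WT replicate 3, 40 genes on the lists were called, while 26.8% of all genes were. No call was made for the proteins that the SOCS box recruits. Among 8 such genes, which included Elob, Eloc and Cul5, none was called with edgeR, also without WT replicate 3, and the median log2 fold change was 0.03. An unadjusted p under 0.05 was found for 2 of them, Eloc and Cul2, and DESeq2 called 0. Both had WT and KO values that did not overlap and adjusted p of 0.0264 and 0.00502, and they missed the call by the fold cutoff alone, at log2 fold changes of 0.41 and 0.38. Of 12 other genes for proteins with a SOCS box that were tested, 1 was called, Asb13, which averaged 44.8 ± 10.6 CPM among WT and 23.5 ± 0.77 CPM among KO samples, a log2 fold change of -0.93 (edgeR adjusted p 0.00299), and the median was -0.06. Without WT replicate 3 Wsb1, which had the highest of its WT values in that sample, was called higher as well.

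The kinases and transcription factors that SOCS proteins restrain differed gene by gene. Of the 4 JAK genes, Jak2 rose from 175.1 ± 27.6 to 325.1 ± 0.82 CPM, by 0.89 on the log2 scale (SE 0.11, edgeR adjusted p 0.000721). Jak1, Jak3 and Tyk2 were not called. Tyk2, with means of 177.7 CPM in WT and 135.3 CPM in KO, missed the call by the fold cutoff alone. Its log2 fold change was -0.39 (adjusted p 0.00978), and its WT and KO values did not overlap. The median of the JAK list was -0.10. Of the 7 STAT genes, Stat4, which transmits IL-12 signals, rose from 66.2 ± 8.61 to 149.3 ± 4.32 CPM, by 1.17 on the log2 scale (SE 0.10, adjusted p 0.000138). The median of the STAT list was 0.31. Stat2 was not called over all samples (log2 fold change 0.50, adjusted p 0.121) and was called higher without WT replicate 3, at 0.85.

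Among 23 cytokine receptor genes tested, 7 were higher and 5 lower in KO, with a median of -0.10. Il6ra and Il6st, the chains of the IL-6 receptor of which the second, gp130, is bound by SOCS3, both fell. For Il6st the WT replicates gave 471.4, 461.0 and 469.1 CPM, against 179.6, 170.1 and 167.7 CPM for KO, a log2 fold change of -1.44 (SE 0.06, edgeR adjusted p 9.99e-06). Il6ra averaged 402.0 ± 21.5 CPM among WT and 147.8 ± 6.65 CPM among KO samples, with a log2 fold change of -1.44 (adjusted p 1.71e-05). Unlike Socs3, these genes had no WT sample near the KO values. The other receptors that fell were Il9r, Il10rb and Ifnar2, at -1.66, -0.93 and -0.81 on the log2 scale.

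Il2rb, the receptor chain bound by CIS, was called higher. The WT replicates gave 1275, 1192 and 1961 CPM, against 2193 to 2259 CPM among KO samples, a log2 fold change of 0.59 (SE 0.18, edgeR adjusted p 0.0309). This lay close to the fold cutoff, and the call ended when WT replicate 1 (0.50), WT replicate 2 (0.45) or KO replicate 2 (0.58) was left out, with library totals alone (0.56), with GC and length offsets (0.58) and with glmTreat (adjusted p 0.859). Ifngr1, the binding chain of the IFN-γ receptor, rose from 165.6 ± 60.2 to 389.4 ± 18.5 CPM, by 1.23 on the log2 scale (SE 0.22, adjusted p 0.00364). Ifngr2, the other chain of that receptor, went the other way, from 57.3 ± 1.14 to 38.8 ± 1.41 CPM. At -0.56 on the log2 scale (edgeR adjusted p 0.000775) it missed the call by the fold cutoff alone. The other receptors called higher were Il12rb1, Il12rb2, Il15ra, Csf2rb and Lifr, of which Lifr and Csf2rb stayed under 7 CPM in all samples. The Lifr call was lost with glmTreat (adjusted p 0.233) and when WT replicate 2 (0.101), KO replicate 1 (0.152), KO replicate 2 (0.110) or KO replicate 3 (0.110) was left out, and the Il15ra call was lost with glmTreat (adjusted p 0.410). Il4ra, the receptor chain that SOCS5 has been described to bind, gave 222.6, 212.8 and 289.2 CPM in the WT replicates and a mean of 304.7 ± 5.90 CPM for KO, and with a log2 fold change of 0.34 (adjusted p 0.0540) it was not called.

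Other inhibitors of the pathway were listed too. Of 11 genes for phosphatases, PIAS proteins, adaptors and other brakes, 1 was called, Sh2b3, the adaptor that restrains JAK2, which averaged 90.5 ± 11.1 CPM among WT and 57.5 ± 1.49 CPM among KO samples, a difference of -0.65 on the log2 scale (SE 0.10, edgeR adjusted p 0.00162). Its call was lost with offsets for GC content and length, at -0.41, without WT replicate 1, at -0.57, and with glmTreat (adjusted p 0.459). The median of this list was -0.13, and without WT replicate 3 a second gene, Usp18, was called, higher in KO.

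Target genes of STAT5 and cytokine genes were listed as well. Of 9 STAT5 targets, Osm and Gzmb rose by 0.87 and 4.44 on the log2 scale, and the median was -0.12. Pim1 was among those not called (log2 fold change 0.18, adjusted p 0.685), and without WT replicate 3 Pim1 and Pim2 brought the number called to 4. Of 12 cytokine genes tested, 9 were called higher and none lower, among them Ifng, which went from 3.65 ± 0.95 to 84.0 ± 1.04 CPM, and Lif, which went from 36.0 ± 7.24 to 174.7 ± 3.91 CPM. The median log2 fold change of that list was 3.83, and 3.07 when Il5 and Il6, at 3 counts or fewer in each WT sample, entered at their lower bounds. The summed myeloid and NK cell markers given above were higher in KO too, and their part in these counts was not tested.

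**Figure D5:**
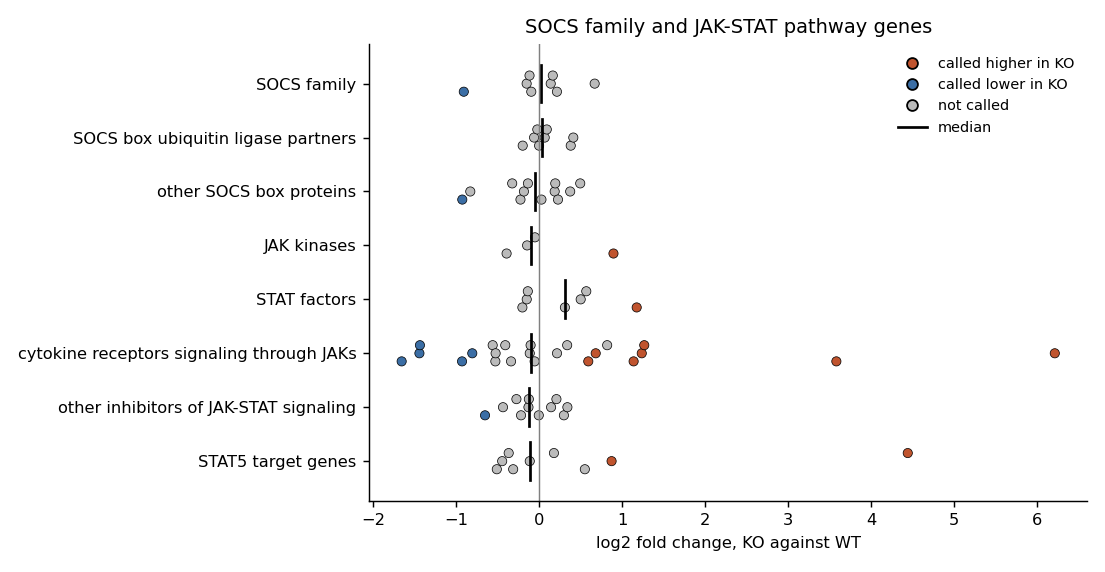
Log2 fold change of KO against WT for each tested gene of the SOCS family and the pathway lists described in the text, without the cytokine genes, with 1 point per gene, color for the call and a bar for the median. The SOCS family, the SOCS box partners and the other inhibitors have medians near 0 (0.02, 0.03 and -0.13), and the receptors spread to both sides.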

How the data were processed

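The data are bulk gene counts for 3 WT and 3 KO samples. According to the methods of the study, reads were filtered with SOAPnuke, mapped to mm10 by HISAT2 with a single alignment kept for each read, and quantified by StringTie. The authors deposited unnormalized whole-number counts per gene. The annotation used, the strand setting and the step that gave whole numbers were not given in the sources used here. No row summed to under 60 counts.

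Counts were tested in R 4.3.3 with edgeR 4.0.16 (filterByExpr at a minimum count of 10, TMM, quasi-likelihood F-test, two-sided, KO against WT over all samples, no covariate, Benjamini-Hochberg adjustment over 13594 genes). Of the 13709 genes, 99.41% had a length and GC content from GENCODE M21. Alternatives were DESeq2 1.42.0, other scalings, filters and cutoffs, GC and length offsets, a replicate block and leaving out each sample. The test was also run on simulated data with known changes. No SD or interval covers more than the spread between samples, and 3 counts, the floor, correspond to 0.0737 to 0.0937 CPM.

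The genes named are the 8 members, Zfp335, called genes of the lists and the 2 genes nearest to each called member. Stat2, Tyk2, Il4ra, Il7r, Ifngr2, Pim1, Pim2, Wsb1, Usp18 and list members named without values were added after their values were seen. Some pathway genes that were tested are not reported here. Members and lists were chosen with earlier results of these data known.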

Additional observations from a re-analysis of the deposited data

How the results depend on the processing

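Socs5 was called lower in KO under all 15 alternatives, and Cish, Socs1, Socs2, Socs4, Socs6 and Socs7 were called under none of them. With edgeR offsets for GC content and length, with the replicate block and without WT replicate 3, 2 members were called, Socs5 and Socs3, and 1 in the other fits (range over samples left out 1 to 2). The log2 fold change of Socs3 was 0.79 with the replicate block (edgeR adjusted p 0.0492), and its adjusted p ran from 4.03e-10 to 0.761 over all alternatives. The Lifr call was lost with the block (adjusted p 0.103). The labels give WT and KO the same numbers without saying that a number marks a shared litter or day, and same-numbered samples did not deviate together (correlations 0.038, 0.040 and -0.012, with WT replicate 3 not closest to its own number). With the replicate block Socs2 turned from -0.10 to 0.0023, and 3190 genes were called, of which 3095 were among the 3318 without the block. Over the fits that each left out 1 sample, Socs2 ranged from -0.31 to 0.361 and Pim1 from -0.0428 to 0.686. Il7r turned from -0.41 to 0.0299 with the replicate block and ranged from -0.766 to 0.739 with a sample left out, and Usp18 turned from -0.28 to 0.134 and ranged from -0.641 to 0.841. The number of genes called was 5244 when only an adjusted p under 0.05 was asked and 1686 with glmTreat against a fold change of 1.5, since these are other cutoffs. The first of these gave 47 called genes on the pathway lists in place of 29. Zfp335 stayed called, from -1.42 to -1.25. For the other differences the cause was not tested. The WT coefficient of variation was 47.7% for Socs2 and 51.6% for Socs3 over 3 samples.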
